A study of Mus musculus with 15 samples.

Results

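The 10 genes described here encode heat shock chaperones and their close partners. They were the rows of the deposited expression table with the symbols Hspa1a, Hspa1b, Hspa8, Dnajb1, Dnaja1, Hsph1, Bag3, Hsp90aa1, Hspb1 and Cacybp, 10 of the 16774 genes listed. They had been picked with the difference between the treatment groups already known. Their differences between the groups are therefore a description: counts of them past a threshold stand beside the share of all genes, and nothing is read from those counts.

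Heat shock proteins keep other proteins folded. In cells under heat, oxidants or other protein-damaging stress, the transcription factor HSF1 is released from inhibition, binds repeats of the pentamer nGAAn in promoters and raises transcription of chaperone genes within minutes. An HSP70 protein binds an exposed stretch of an unfolded client, a J-domain protein (HSP40) delivers the client and starts ATP hydrolysis, and an HSP110 or BAG protein exchanges the nucleotide so that the client is let go. HSP90 takes over later folding steps of kinases and receptors, and small heat shock proteins hold unfolded proteins without ATP. Brown fat warms the animal: under sympathetic stimulation its mitochondria burn fuel as heat through the uncoupling protein Ucp1.

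Bulk RNA sequencing was done on brown adipose tissue of mice given bisphenol S (BPS), an industrial substitute for bisphenol A, or vehicle, in a study that asked, per its title, about environmental exposure to BPS and aging of this tissue. The labels gave 8 vehicle samples, replicates 1 to 8, and 7 BPS samples, replicates 1 to 6 and 8, each with its own identifier. For both groups the sources used here give no dose, duration, route, age, sex, strain or vehicle composition. Values are FPKM, fragments scaled by transcript length and by the library total. They are relative to each library, so a difference between libraries also depends on how abundant the other transcripts are.

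All 10 brown adipocyte markers examined were above 0 in every library, with Ucp1 at 358 to 2321 FPKM in vehicle and 82.3 to 1960 FPKM in BPS. The sum of FPKM over all genes ran from 756556 to 920855, and the depth in reads is unknown. BPS replicates 4, 5, 6 and 8 stood apart: the mean level of 4 Y-linked genes was 0.44%, 53.5%, 74.5% and 26.4% of the vehicle mean there, against 82.9% to 114.7% in the other 11 libraries. These 4 libraries also stood apart in white adipocyte and macrophage markers. The mean log2(FPKM + 1) of 4 white adipocyte markers was 7.54 to 9.03 in them and at most 7.07 elsewhere, and that of 6 macrophage markers was 4.81 to 5.40 against at most 4.51. The 10 brown adipocyte markers summed to 1537 FPKM in BPS replicate 4 and 7994 FPKM in BPS replicate 8. In BPS replicates 5 and 6 their sums, 10766 and 13223 FPKM, lay within the vehicle range of 10468 to 23019 FPKM. The part of these markers in the results below was not tested. Skeletal muscle transcripts varied widely in both groups, with 13 markers that summed to between 80.9 and 62389 FPKM in vehicle and between 9.97 and 11170 FPKM in BPS. They were highest in vehicle replicates 2, 6 and 8. Myh7 was listed at 0 in 1 vehicle library, and Myh2 and Pvalb at 0 in 1 BPS library each. The log2 change of each of the 10 genes is therefore also given without BPS replicates 4, 5, 6 and 8 and without vehicle replicates 2, 6 and 8. In tissue RNA, fewer cells of a type and less RNA per cell cannot be told apart. P-values measure the spread between libraries, which is the spread between mice only where each library holds the RNA of its own mouse alone.

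The promoters of the genes were searched for the pair of opposed pentamers that HSF1 contacts, because it is the sequence feature that defines the textbook family. The letters were GAANNTTC and TTCNNGAA, each its own reverse complement, so 1 strand was read for both, and the triple units GAANNTTCNNGAA and TTCNNGAANNTTC hold overlapping copies of these 2. Windows of 250 bases before and 50 bases after each transcript start came from RefSeq annotation of GRCm38.p6, which held 8 of the 10 genes; Hspa8 and Hsp90aa1 had no entry. Positions count from the start site, with the base before it at -1. A pair was found in 6 of the 8 genes, in a table where 17.0% of 27025 genes had it. These 6 were Hspa1a, Hspa1b, Hspb1, Dnaja1, Hsph1 and Bag3. No window of Dnajb1 or Cacybp held these letters. A triple unit was present in Hsph1 alone among the 8, against 0.662% of all genes. Only exact letters were matched, so a longer array with a changed letter would be missed. A match is a description of the letters in the window and not of binding. The Hspa1a upstream sequence is shown because this gene differed most between the groups, that of Hspb1 because it held 2 separate pairs, and the short sites to compare their cores. Capitals mark the matching letters.
Hspa1a, chr17:34972157-34972406, minus strand, pair at -104: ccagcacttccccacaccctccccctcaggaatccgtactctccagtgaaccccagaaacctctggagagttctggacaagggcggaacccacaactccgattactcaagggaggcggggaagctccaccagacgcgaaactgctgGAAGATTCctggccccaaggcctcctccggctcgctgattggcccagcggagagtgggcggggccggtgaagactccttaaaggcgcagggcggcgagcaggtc
Hspb1, chr5:135887669-135887918, plus strand, pairs at -117 and -97: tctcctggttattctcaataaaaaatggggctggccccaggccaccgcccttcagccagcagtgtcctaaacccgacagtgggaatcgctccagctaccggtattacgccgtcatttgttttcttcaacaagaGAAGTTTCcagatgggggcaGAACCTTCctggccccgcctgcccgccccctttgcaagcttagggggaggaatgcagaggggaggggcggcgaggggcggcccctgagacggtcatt
Dnaja1 site, chr4:40722333-40722362, plus strand, pair at -124: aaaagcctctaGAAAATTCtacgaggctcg
Hsph1 upstream site, chr5:149636351-149636380, minus strand, pair at -33: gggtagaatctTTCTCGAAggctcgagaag
Hsph1 downstream site, chr5:149636287-149636316, minus strand, triple unit from 37: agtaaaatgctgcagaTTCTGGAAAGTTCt
Bag3 site, chr7:128523603-128523632, plus strand, pair at 43: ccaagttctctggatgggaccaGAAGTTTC
The Hspa1b window was identical to that of Hspa1a at 296 of 300 bases, and its pair stood at the same distance from the start, -104. The pair lay upstream of the start in Hspa1a, Hspa1b, Hspb1 and Dnaja1, on both sides of it in Hsph1 and downstream of it in Bag3. Some genes had more than 1 start, and the positions given are those of window 1. In window 2 of Hsph1 the matches began at -54, 16 and 21. Windows 2 and 3 of Dnaja1 held no match.

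Hspa1a and Hspa1b encode the stress-inducible HSP70 proteins and are neighbouring genes in the major histocompatibility region. Hspa1a (Entrez gene 193740) lies at chr17:34969359-34972156 and Hspa1b (Entrez gene 15511) at chr17:34956429-34959238, in GRCm38.p6. Hspa1a stood at 93.03, 27.56, 37.95, 36.67, 9.51, 17.11, 12.44 and 9.07 FPKM in vehicle replicates 1 to 8. In BPS replicates 1, 2, 3, 4, 5, 6 and 8 it stood at 3.70, 6.80, 7.19, 2.02, 1.77, 3.09 and 2.09 FPKM. Every BPS library was thus below every vehicle library, and the vehicle libraries themselves spanned a 10.3-fold range. The group means were 30.4 ± 27.8 FPKM (SD, n = 8) in vehicle and 3.81 ± 2.28 FPKM (SD, n = 7) in BPS, a ratio of 7.99. On the log2(FPKM + 1) scale, which understates differences of low values, the change was -2.43 ± 0.449 (limma SE). It was -1.83 without the 4 BPS libraries low in Y-linked transcripts and -2.71 without the 3 vehicle libraries high in muscle transcripts.

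Hspa1b ran from 7.61 through a median of 15.2 to 82.5 FPKM in vehicle, and from 2.11 through 3.52 to 9.36 FPKM in BPS. The groups overlapped, because BPS replicates 2 and 3 (8.23 and 9.36 FPKM) lay above the lowest vehicle library. The remaining 5 BPS libraries were below all vehicle libraries. The change was -1.97 ± 0.471 on the log2 scale, -1.38 without BPS replicates 4, 5, 6 and 8, and -2.31 without vehicle replicates 2, 6 and 8. The 2 genes share much of their sequence: of the windows of 100 bases in the Hspa1a transcript, 47.1% recur unchanged in the Hspa1b transcript 4.67% in that of Hspa1l and 0% in that of Hspa8. The split of reads between Hspa1a and Hspa1b is therefore an estimate of the counting program. The sum of both depends on that split only through the lengths of the transcripts, 2967 and 2803 bases. It ran from 17.0 to 175.6 FPKM in vehicle and from 3.88 to 16.6 FPKM in BPS, with no overlap and a log2 change of -2.34.

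Hspa8 (Entrez gene 15481, chr9:40801276-40805202) encodes HSC70, the HSP70 protein that cells make all the time. It was the most abundant of the 10 genes in every library, at 454 to 1063 FPKM in vehicle (median 704) and 512 to 803 FPKM in BPS (median 633). The BPS libraries all lay within the vehicle range, and the log2 change of -0.06 ± 0.174 was 0.16 without BPS replicates 4, 5, 6 and 8 and -0.09 without vehicle replicates 2, 6 and 8. The inducible and the constitutive HSP70 transcripts thus stood in different proportion in the groups. Hspa1a amounted to 1.81% to 8.75% of Hspa8 in vehicle (median 3.28%) and to 0.319% to 0.895% in BPS (median 0.554%), and these ranges did not overlap. Hspa8 made up 49.3% to 55.3% of the summed FPKM of the 10 genes in vehicle and 58.4% to 64.2% in BPS. BPS replicates 2 and 3 show the contrast within single libraries, since their Hspa8 levels of 765 and 803 FPKM were close to those of vehicle replicates 3 and 4, at 735 and 788 FPKM. Their Hspa1a levels were 6.80 and 7.19 FPKM, against 37.95 and 36.67 FPKM in those vehicle libraries. These ratios come from the same libraries that chose Hspa1a and are a description.

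**Figure D1:**
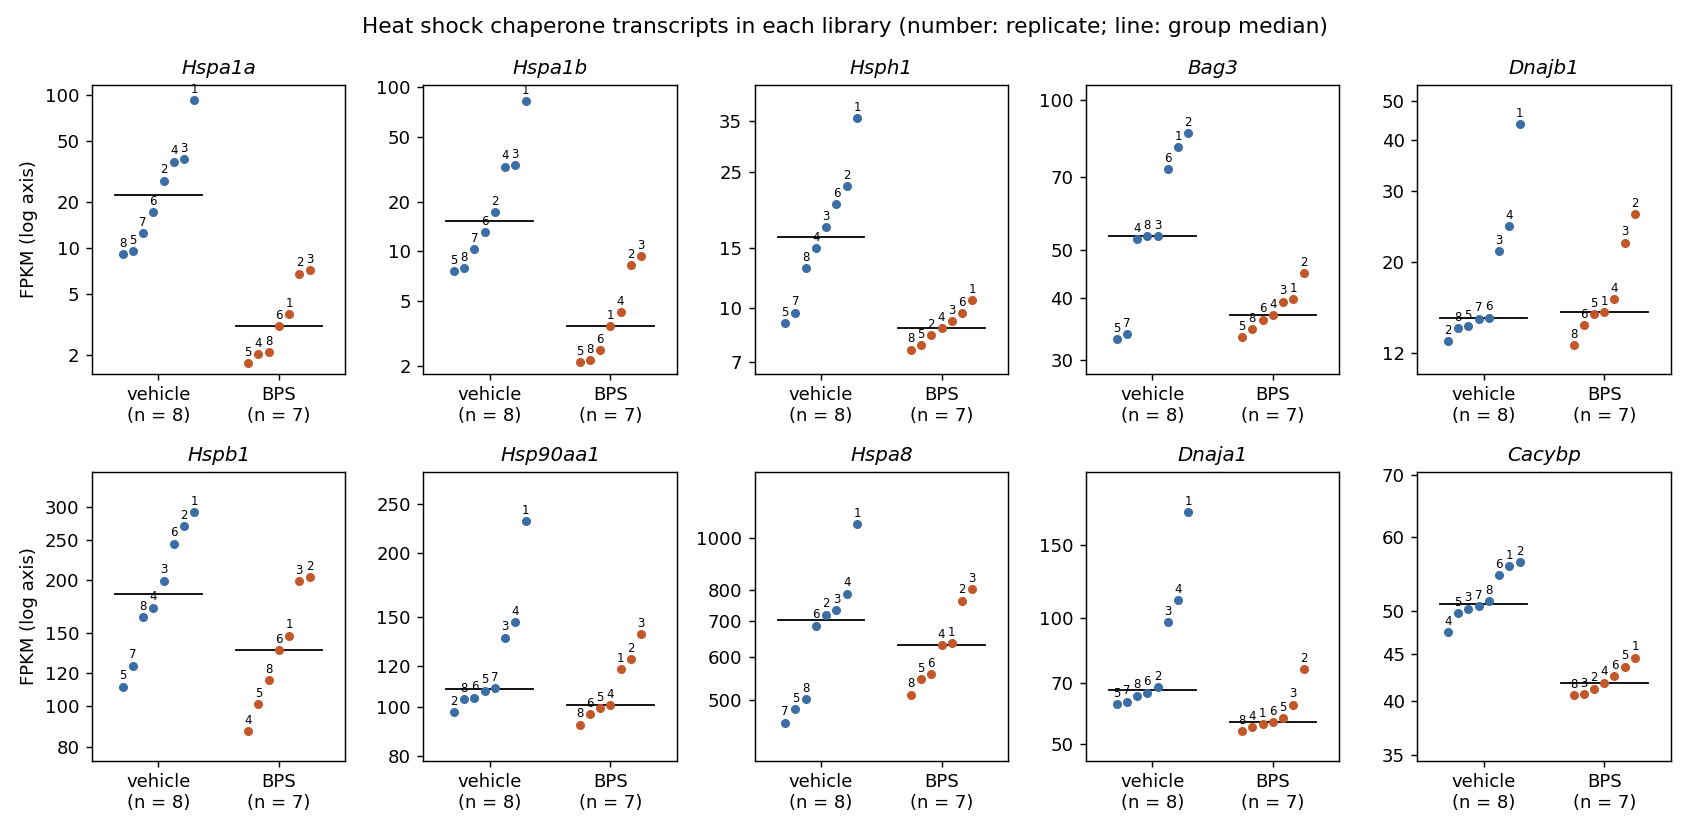
FPKM of each chaperone gene in each library, on log axes, for 8 vehicle and 7 BPS libraries; numbers are replicates and lines are group medians. Hspa1a and Cacybp show no overlap of the groups, and vehicle replicate 1 is the highest library for 8 of the 10 genes.

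Of the J-domain partners of HSP70, Dnajb1 (Entrez gene 81489, chr8:83608175-83612653) encodes the stress-inducible HSP40 protein. It ran from 12.8 through a median of 14.6 to 43.8 FPKM in vehicle and from 12.5 through 15.1 to 26.3 FPKM in BPS. Its median was higher in BPS while its mean was higher in vehicle, 19.9 ± 10.5 (SD, n = 8) against 17.4 ± 5.04 FPKM (SD, n = 7), because vehicle replicate 1 stood far above the rest. The log2 change of -0.11 ± 0.237 turned to 0.06 without that library and to 0.18 without BPS replicates 4, 5, 6 and 8, and was -0.34 without vehicle replicates 2, 6 and 8. Dnaja1 (Entrez gene 15502, chr4:40722468-40734965), a farnesylated J-domain protein that works with constitutive HSP70, ran from 62.2 through 67.3 to 180.4 FPKM in vehicle and from 53.5 through 56.3 to 75.4 FPKM in BPS. All BPS libraries except replicate 2 were below the lowest vehicle library. Its log2 change was -0.49 ± 0.200, and -0.33 without vehicle replicate 1. It was -0.38 without BPS replicates 4, 5, 6 and 8 and -0.68 without vehicle replicates 2, 6 and 8.

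Hsph1 and Bag3 encode proteins that act on the HSP70 cycle after client binding. Hsph1 (Entrez gene 15505, chr5:149616843-149636498), the inducible HSP110 protein and a nucleotide exchange factor, ran from 9.04 through 16.1 to 35.7 FPKM in vehicle and from 7.59 through 8.76 to 10.6 FPKM in BPS. The group ranges overlapped, with 4 of the 7 BPS libraries below every vehicle library, and the spread was 3.95-fold in vehicle and 1.39-fold in BPS. The log2 change was -0.82 ± 0.222, and it was -0.74 without BPS replicates 4, 5, 6 and 8 and -0.73 without vehicle replicates 2, 6 and 8. Bag3 (Entrez gene 29810, chr7:128523583-128546981), a BAG-domain exchange factor that passes damaged proteins to selective autophagy and is abundant in muscle, ran from 33.1 through 53.3 to 86.0 FPKM in vehicle. In BPS it ran from 33.3 through 37.0 to 44.9 FPKM. No BPS library was below the lowest vehicle library, and the 2 vehicle libraries lowest in Bag3, replicates 5 and 7, were also the lowest in muscle markers. The log2 change was -0.53 ± 0.188, and -0.33 in a fit with a term for the mean log2 of the 13 muscle markers. It was -0.34 when vehicle replicates 2, 6 and 8 were left out and -0.41 when BPS replicates 4, 5, 6 and 8 were. The relation of Bag3 to the muscle markers between libraries of a group is given further below. The part of muscle transcripts in the Bag3 difference was not tested beyond these values.

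Hspb1 (Entrez gene 15507, chr5:135887919-135889563), the small heat shock protein HSP27 (HSP25 in mice), ran from 111 through 186 to 291 FPKM in vehicle and from 87.1 through 136 to 203 FPKM in BPS. Most BPS libraries lay inside the vehicle range, with replicates 4 and 5 below it. The log2 change of -0.47 ± 0.233 was -0.05 without BPS replicates 4, 5, 6 and 8, so the difference rested on those libraries. It was -0.29 with the muscle term and -0.32 without vehicle replicates 2, 6 and 8. Hsp90aa1 (Entrez gene 15519, chr12:110691036-110696395), the stress-inducible form of cytosolic HSP90, ran from 97.6 through 108 to 232 FPKM in vehicle and from 92.1 through 101 to 139 FPKM in BPS. The groups overlapped over most of their range, and the log2 change of -0.19 ± 0.165 was -0.06 without vehicle replicate 1, 0.03 without BPS replicates 4, 5, 6 and 8 and -0.36 without vehicle replicates 2, 6 and 8.

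Cacybp (Entrez gene 12301, chr1:160202367-160212892) encodes the calcyclin-binding protein, which binds S100 proteins and HSP90 and bridges the ubiquitin ligase SIAH1 to its targets. Its vehicle values were 55.91, 56.49, 50.32, 47.50, 49.78, 54.61, 50.63 and 51.23 FPKM. Its BPS values were 44.56, 41.27, 40.72, 41.88, 43.59, 42.59 and 40.63 FPKM. Every BPS library was below every vehicle library, with a spread of 1.19-fold in vehicle and 1.10-fold in BPS, the narrowest of the 10 genes in each group. The means were 52.1 ± 3.22 (SD, n = 8) and 42.2 ± 1.49 FPKM (SD, n = 7), a ratio of 1.23. The log2 change was -0.30 ± 0.0544 over all libraries, -0.30 without BPS replicates 4, 5, 6 and 8 and -0.26 without vehicle replicates 2, 6 and 8. Vehicle replicate 1, which was far above the other vehicle libraries in Hspa1a, was second to vehicle replicate 2 in Cacybp.

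The log2 change was negative for 10 of the 10 genes, while 41.5% of the 12156 tested genes had a negative change, and the median was -0.48 for the 10 genes and 0.05 for all tested genes. Under quantile normalization and under median scaling the change was also negative for 10 of 10. Of the 10 genes, 2 (Hspa1a and Cacybp) were lower in BPS at a limma adjusted p under 0.05, where 0.0658% of all tested genes were. None of the 10 was higher, where 0.346% of all tested genes were. The same 2 had no overlap between the groups in this direction, as had 0.107% of all tested genes. The genes were picked on this contrast, so these counts carry no test. Without BPS replicates 4, 5, 6 and 8, 0 of 10 were lower at that threshold (0.00823% of all genes, with 976 at an unadjusted p under 0.05). Hspa1a and Cacybp still had no overlap (0.930% of all genes), which leaving libraries out cannot change. Without vehicle replicates 2, 6 and 8, 0 of 10 passed, and 0 of 12156 genes were by limma, with 1440 at an unadjusted p under 0.05. In the authors' deposited table, 6 of the 10 had a q-value under 0.05 and a lower level in BPS, as had 2.57% of its 16747 genes with a q-value. The log2 ratio in the authors' deposited table was -3.03 for Hspa1a, -2.502 for Hspa1b, -1.05 for Hsph1, -0.68 for Bag3, -0.64 for Dnaja1 and -0.38 for Cacybp.

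**Figure D2:**
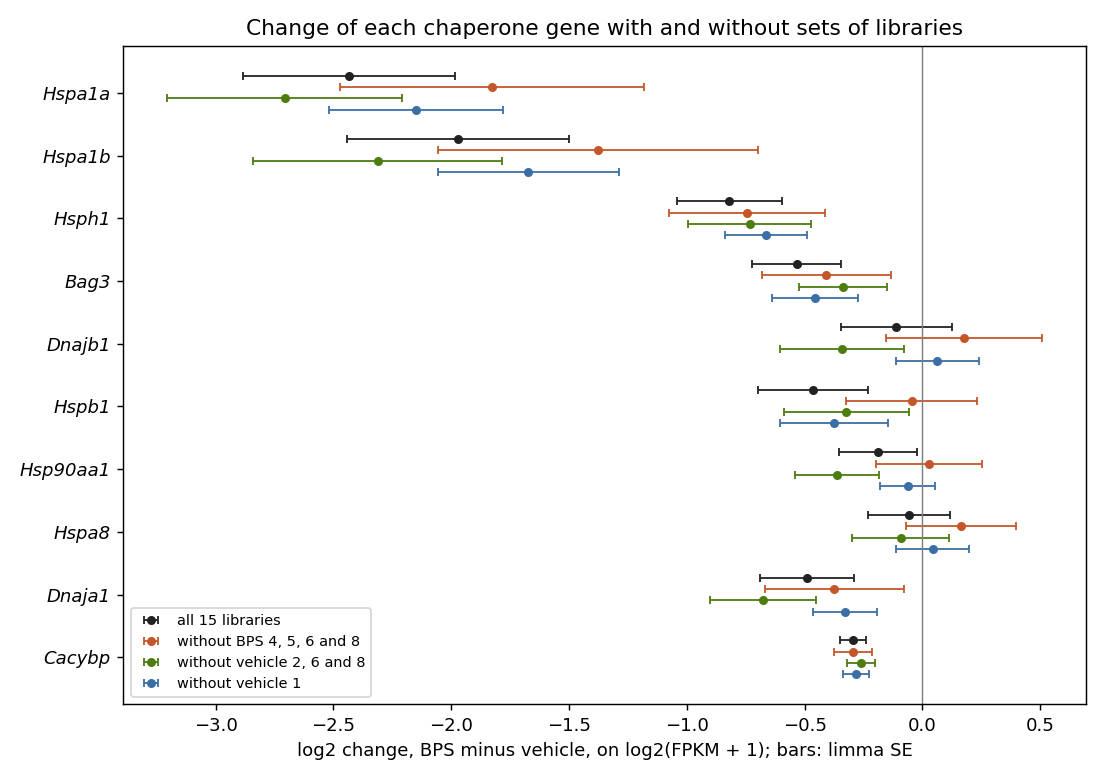
Log2 change of each gene, BPS minus vehicle, on log2(FPKM + 1), with limma standard errors, for all 15 libraries and with sets of libraries left out. Hspa1a, Hspa1b, Hsph1, Bag3, Hspb1, Dnaja1 and Cacybp stay below 0 in all 4 versions shown, Hspb1 only just without BPS replicates 4, 5, 6 and 8 (-0.05). Dnajb1, Hsp90aa1 and Hspa8 cross 0 in at least 1.

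The genes did not share one order of the vehicle libraries. Vehicle replicate 1 was among the 3 highest vehicle libraries for 10 of the 10 genes. It was joined there by replicates 3 and 4 for 6 genes, Hspa1a, Hspa1b, Dnajb1, Hsp90aa1, Hspa8 and Dnaja1. For the other 4, Hsph1, Bag3, Hspb1 and Cacybp, it was joined by replicates 2 and 6, which had the highest mean log2 of the muscle markers, 11.055 and 10.998, against 2.20 to 9.49 in the other 6 vehicle libraries. The relation of each of the 10 genes to the muscle markers was computed within each group after this was seen, 20 relations in all. None passed after Benjamini-Hochberg adjustment. In vehicle, the highest Pearson r was that of Bag3, at 0.887 (Spearman rho 0.833, two-sided exact permutation p = 0.00501, adjusted p = 0.1002, n = 8), and it was 0.570 without the 2 libraries farthest from the median. The same values for Hspb1 were r = 0.808, rho = 0.714, exact p = 0.0167 and adjusted p = 0.167, and r fell to 0.326 without those 2 libraries. For Hspa1a in vehicle, r was 0.275 (rho = 0.119, exact p = 0.505, adjusted p = 0.995). Hsph1 had r = 0.662 (rho = 0.714, adjusted exact p = 0.299) and Cacybp r = 0.577 (rho = 0.762, adjusted exact p = 0.455) in vehicle. Without vehicle replicates 5 and 7, the 2 farthest from the median, r was 0.032 for Hsph1, 0.604 for Cacybp and -0.556 for Hspa1a. In BPS the highest r were those of Cacybp, 0.807 (rho = 0.893, exact permutation p = 0.0260, adjusted p = 0.173, n = 7), and Hsph1, 0.782 (rho = 0.750, exact p = 0.0369, adjusted p = 0.185). They were 0.598 and 0.350 without BPS replicates 1 and 8, the 2 farthest from the median.

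**Figure D3:**
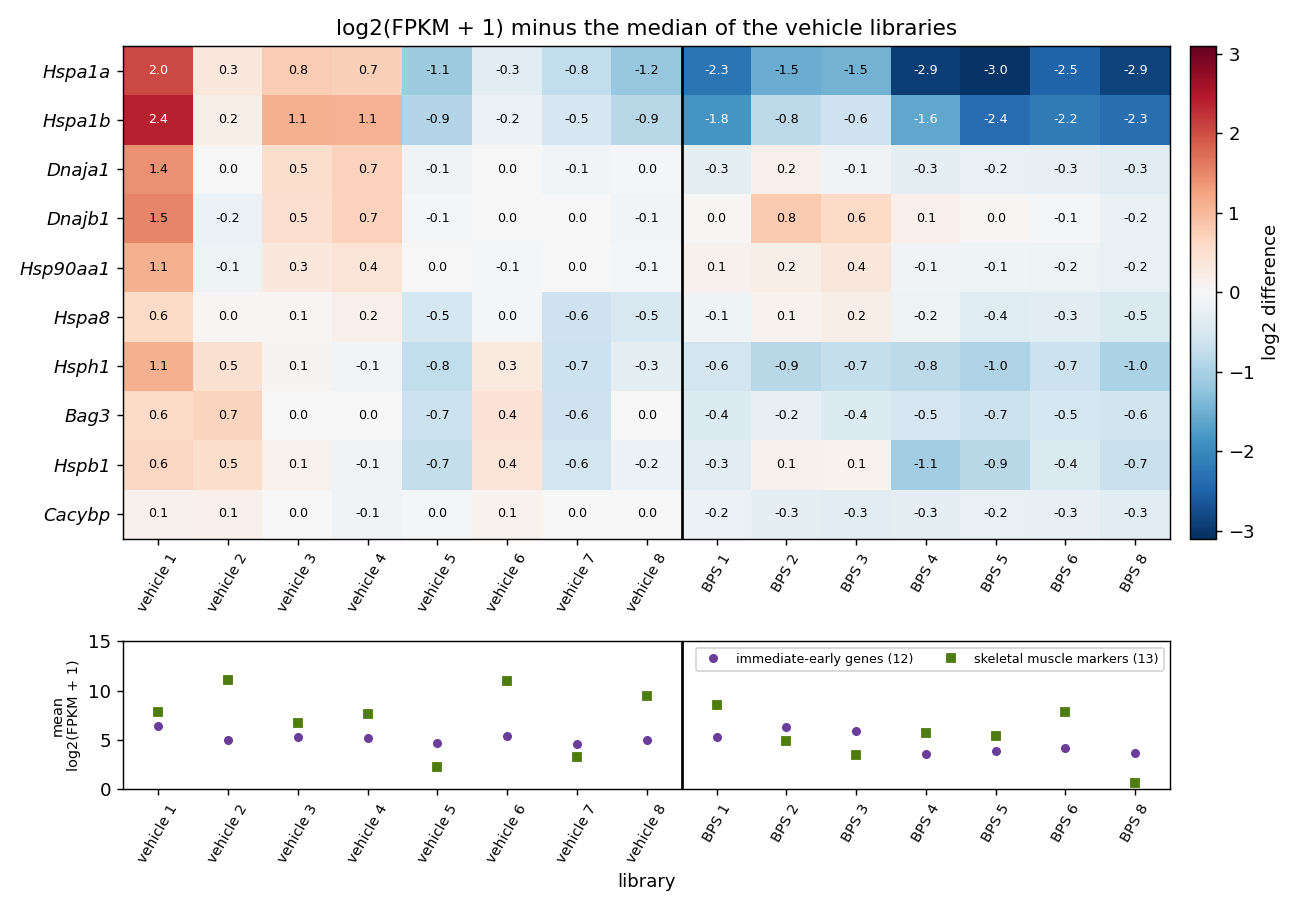
Each gene in each library as its difference from the median of the vehicle libraries on log2(FPKM + 1), in columns for the 15 libraries; below, the mean log2(FPKM + 1) of 12 immediate-early genes and of 13 skeletal muscle markers in the same libraries. Vehicle replicate 1 is above the vehicle median for all 10 genes, and the largest negative values are those of Hspa1a and Hspa1b in the BPS libraries.

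Within the vehicle libraries, which did not differ in treatment, Hspa1a was set against each other gene of the group except its copy Hspa1b, and against the mean log2(FPKM + 1) of 4 gene lists. With the same relations in BPS this made 24 relations, and 6 of the 12 in vehicle passed at an adjusted p under 0.05 for Pearson r. For Spearman's rho 0 passed, and the smallest adjusted p was 0.0579. The share of all tested genes that would pass with Hspa1a was not computed, so the count does not set the chaperone genes apart. Rell1, Mafk, Lrrc32 and Rassf1 are outside the group and were picked for their likeness to it, as described further below. Over the vehicle libraries their r with the mean of the chaperone genes was 0.9551, 0.9565, 0.9513 and 0.9748. These libraries were part of that choice, so a high r was given in advance. Being with the mean, these r are not comparable with the r with Hspa1a. Hspa1a varied with Hspa8 between vehicle libraries (r = 0.953, rho = 0.881, two-sided exact permutation p = 0.000694, adjusted p = 0.00833, n = 8), and r was 0.904 without vehicle replicates 1 and 8. With Dnaja1, r was 0.924 (rho = 0.905, exact permutation p = 0.000372, adjusted p = 0.00833), and it was 0.855 without those libraries. The relations with Dnajb1 (r = 0.874, adjusted exact p = 0.0211), Hsp90aa1 (r = 0.852, 0.0232) and Hsph1 (r = 0.831, 0.0269) had r between 0.632 and 0.699 without them. Without vehicle replicate 1 alone, with n = 7, 1 of the 12 relations passed, that with Dnaja1. The r with Hspa8 was still 0.912 there. Those with Dnajb1, Hsp90aa1, Hsph1 and the immediate-early list described next were 0.654 to 0.716. Hspb1 (r = 0.718), Bag3 (r = 0.618) and Cacybp (r = 0.322) did not pass, with adjusted exact p of 0.0801, 0.154 and 0.518. A set of fewer than 6 vehicle libraries remains without replicates 2, 6 and 8, so no r was computed there.

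Immediate-early genes are switched on within minutes of many stimuli. Their mean log2 over 12 genes was 6.45 in vehicle replicate 1 and 4.58 to 5.34 in the other vehicle libraries. Over the vehicle libraries its r with Hspa1a was 0.864 (rho = 0.762, two-sided exact permutation p = 0.00613, adjusted p = 0.0211, n = 8), 0.772 without replicates 1 and 8. In BPS it was 5.27, 6.25 and 5.87 in replicates 1, 2 and 3 and 3.59 to 4.15 in replicates 4, 5, 6 and 8. BPS replicates 2 and 3 were thus above every vehicle library except replicate 1 in this list while their Hspa1a was below every vehicle library. What this list shares with the chaperone levels was not tested beyond these values. In vehicle, the mean log2 of clock genes (r = 0.475, adjusted exact p = 0.333), brown adipocyte markers (r = -0.353, 0.514) and muscle markers (r = 0.275, 0.551) did not pass with Hspa1a.

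In BPS, replicates 1, 2 and 3 held the 3 highest Hspa1a values, 3.70, 6.80 and 7.19 FPKM, and replicates 4, 5, 6 and 8 the 4 lowest, 1.77 to 3.09 FPKM. The widest gap in Hspa1a lay between 3.70 and 6.80 FPKM, within the first set, while in Y-linked transcripts and in the immediate-early list the 2 sets stood apart. A relation with Hspa1a over all 7 BPS libraries cannot be told apart from the difference between these sets. Sets of 3 and 4 libraries are too small to test a relation within them, so no r with Hspa1a is given for BPS.

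**Figure D4:**
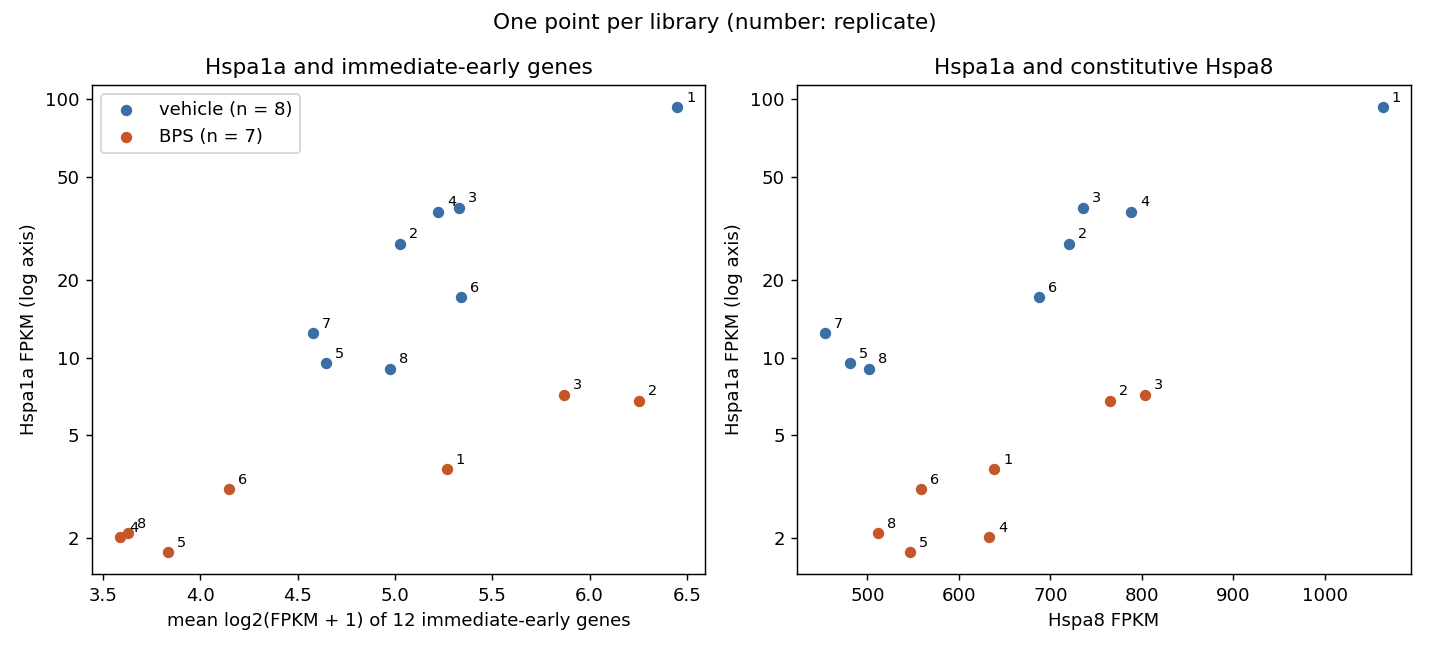
Hspa1a FPKM (log axis) against the mean log2(FPKM + 1) of 12 immediate-early genes and against Hspa8 FPKM, with 1 point per library and replicate numbers. All 7 BPS points lie below all 8 vehicle points in Hspa1a. Their Hspa8 levels lie within the vehicle range, while BPS replicates 4, 5, 6 and 8 are lower than every vehicle library in the immediate-early genes; vehicle replicate 1 is at the upper right, at 93.03 FPKM of Hspa1a.

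The other genes of the heat shock network were taken as 12 lists, in which 120 genes outside the 10 could be tested. Of these, 1 passed at an adjusted p under 0.05 (0.411% of all tested genes did, in either direction), the immediate-early gene Nr4a3, and 67 of 120 had a negative change, with a median of -0.04 against 0.05 for all tested genes. On the 6 lists of chaperones and co-chaperones, 0 of 75 genes passed by limma. At an unadjusted p under 0.05, 8 of these 75 were lower and 12 higher in BPS, against 6.7% and 16.4% of all tested genes.

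Of the heat shock factors and their regulators, 0 of 6 passed and 6 of 6 had a negative change, with a median of -0.15. Some of these signs turned with the libraries used. Without vehicle replicates 2, 6 and 8 the change was 0.06 for Hsf1, 0.04 for Hsf2 and 0.00 for Hsf4, another heat shock factor, and the median was -0.06. Without BPS replicates 4, 5, 6 and 8 it was 0.04 for Hsf1 and 0.18 for Dedd2, and with the muscle term it was 0.01 for Hsf1. Hsf1, the master regulator, stood at 11.8 ± 2.01 FPKM (SD, n = 8) in vehicle and 11.6 ± 1.17 FPKM (SD, n = 7) in BPS, a log2 change of -0.02 (limma adjusted p = 0.912). HSF1 is controlled mainly as a protein, which transcript levels do not show. Hsbp1, whose product binds and restrains HSF1, stood at 193 ± 14.1 and 165 ± 10.6 FPKM (log2 change -0.22 ± 0.0671, limma adjusted p = 0.107). Hsf2, a second heat shock factor, had a change of -0.28 and Ier5, an immediate-early gene whose product activates HSF1, one of -0.38, with limma adjusted p of 0.380 and 0.238. The change of Ier5 was -0.06 without the 4 BPS libraries.

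Among 11 other HSP70 and HSP110 genes the median was 0.06, with 4 negative changes and 0 past the threshold. The closest were Hyou1, the HSP110 relative of the endoplasmic reticulum, at 0.19 (limma adjusted p = 0.277), Hspa12a, a distant HSP70 relative, at 0.51 (0.173), and Hspa13 at 0.15 (0.368). Hspa12a stood at 21.4, 18.9, 15.1 and 18.2 FPKM in BPS replicates 4, 5, 6 and 8 and at 6.77 to 9.11 FPKM in the other 3. Without those 4 libraries its change was -0.10 and that of Hspa13 -0.07, and without vehicle replicates 2, 6 and 8 that of Hyou1 was 0.07. Among 16 other J-domain genes the median was 0.00, with 8 negative changes and 0 past the threshold. Dnajb5, the J-domain gene nearest to Dnajb1 and Dnajb4 in its family, had means of 14.9 ± 10.02 (SD, n = 8) and 6.17 ± 1.46 FPKM (SD, n = 7), with a log2 change of -0.91 ± 0.342 (limma adjusted p = 0.147). Its 2 highest values, 29.9 and 29.6 FPKM, were in vehicle replicates 2 and 6, the libraries highest in muscle markers, and the change was -0.39 without vehicle replicates 2, 6 and 8. The endoplasmic reticulum members Dnajc3 and Dnajc10 had changes of 0.23 and 0.25, with limma adjusted p of 0.135 and 0.163, and that of Dnajc10 was 0.10 without BPS replicates 4, 5, 6 and 8.

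For the 9 BAG proteins and other HSP70 regulators the median was 0.06, with 2 negative changes and 0 past the threshold. Sil1, an exchange factor of the endoplasmic reticulum, had a change of 0.34, St13, which stabilizes HSP70 with its client, 0.27, and Bag2 -0.39, with limma adjusted p of 0.116, 0.250 and 0.322. Without BPS replicates 4, 5, 6 and 8 these were 0.21, 0.01 and -0.38, and without vehicle replicates 2, 6 and 8 they were 0.19, 0.18 and -0.18. For the 15 HSP90 paralogs and co-chaperones the median was -0.11, with 9 negative changes and 0 past the threshold. Nudc had a change of 0.17 (limma adjusted p = 0.134), 0.08 without the 4 BPS libraries, and Chordc1, an HSP90 co-chaperone, one of -0.26 (0.179). Fkbp5, an HSP90-bound immunophilin induced by glucocorticoids, reached 138.8, 68.1, 35.4 and 91.6 FPKM in BPS replicates 4, 5, 6 and 8. In BPS replicates 1, 2 and 3 its values of 8.24, 5.63 and 6.97 FPKM lay within the vehicle range of 2.63 to 9.20 FPKM. Its high values were thus all in the BPS libraries low in Y-linked transcripts. Its log2 change was 2.05 ± 0.640 over all libraries (limma adjusted p = 0.113) and 0.19 without those 4 libraries (limma adjusted p = 0.850; 0.0654 to 0.850 over 28 alternatives).

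All 7 other small heat shock protein genes had a negative change, with a median of -1.09 and 0 past the threshold. Several are abundant in muscle. Cryab, alpha B-crystallin, ran from 94.0 to 2247 FPKM in vehicle, highest in replicates 2 and 6, and its change of -1.09 was 0.01 without vehicle replicates 2, 6 and 8. The median of the 7 was -0.19 with the muscle term and -0.04 without vehicle replicates 2, 6 and 8. Hspb8, the partner of BAG3 in protein quality control, was at 84.3 ± 58.2 and 42.4 ± 13.9 FPKM (log2 change -0.77, limma adjusted p = 0.208), and Hspb2 and Hspb3 had changes of -1.09 and -1.37 (0.308 and 0.311). Without vehicle replicates 2, 6 and 8 the changes of Hspb8, Hspb2 and Hspb3 were -0.15, -0.14 and -0.05. Among 17 chaperonin and prefoldin genes the median was -0.04, with 9 negative changes and 0 past the threshold. Pdcl3, a cofactor of the cytosolic chaperonin, came closest, at 59.5 ± 5.50 and 46.9 ± 4.33 FPKM (log2 change -0.34 ± 0.0747, limma adjusted p = 0.0627; 0.0454 to 0.365 over 28 alternatives). The prefoldin subunits Pfdn4 and Pfdn2 had changes of -0.25 and -0.30 (limma adjusted p of 0.110 and 0.121), and that of Pfdn2 was -0.08 without BPS replicates 4, 5, 6 and 8.

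Among 6 other heat-inducible genes the median was 0.05 and 0 passed. Serpinh1, the collagen chaperone HSP47, was at 149 ± 19.0 and 115 ± 13.9 FPKM (log2 change -0.37 ± 0.0952, limma adjusted p = 0.0876), while Ubb, which encodes ubiquitin, had a change of 0.26 (0.218), which was -0.01 without BPS replicates 4, 5, 6 and 8. The cold-inducible RNA-binding protein genes Cirbp and Rbm3, which respond to cooling, had changes of 0.40 and 0.13 (limma adjusted p of 0.169 and 0.616), and 0.01 and -0.24 without BPS replicates 4, 5, 6 and 8. Of 4 partners of Cacybp 0 passed. Siah2, a ubiquitin ligase related to SIAH1, was at 7.27 ± 2.96 and 4.11 ± 0.532 FPKM (log2 change -0.63 ± 0.170, limma adjusted p = 0.0924), with Siah1a at -0.06 (0.620) and the calcyclin gene S100a6 at 0.49 (0.405). The change of S100a6 turned to -0.44 without BPS replicates 4, 5, 6 and 8.

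Of the 12 immediate-early genes 1 passed, 9 had a negative change and the median was -0.34. That median was 0.67 without BPS replicates 4, 5, 6 and 8, so its sign rested on those libraries. Nr4a3, an orphan nuclear receptor induced by cold and adrenergic signals, fell from 7.63 ± 6.20 FPKM (SD, n = 8) in vehicle to 1.49 ± 0.981 FPKM (SD, n = 7) in BPS. Its highest BPS value, 2.95 FPKM, was below its lowest vehicle value, 3.16 FPKM, and its log2 change was -1.68 ± 0.333 (limma adjusted p = 0.0473). Without the 4 libraries it was -1.11 (limma adjusted p = 0.507), and over 28 alternatives the adjusted p ran from 0.0352 to 0.507. Atf3, a stress-induced transcription factor, and Ier3 had changes of -1.57 and -0.68 (limma adjusted p of 0.0955 and 0.109), which were -0.63 and -0.33 without the 4 libraries. Of 15 clock genes 0 passed, with 7 negative changes and a median of 0.16. Bhlhe40, a repressor of the clock, had a change of -1.16 ± 0.257 (limma adjusted p = 0.0627; 0.0330 to 0.556 over 28 alternatives), and Cry2 and Tef had changes of 0.47 and 0.26 (0.104 and 0.115). That of Cry2 was 0.27 without BPS replicates 4, 5, 6 and 8.

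**Figure D5:**
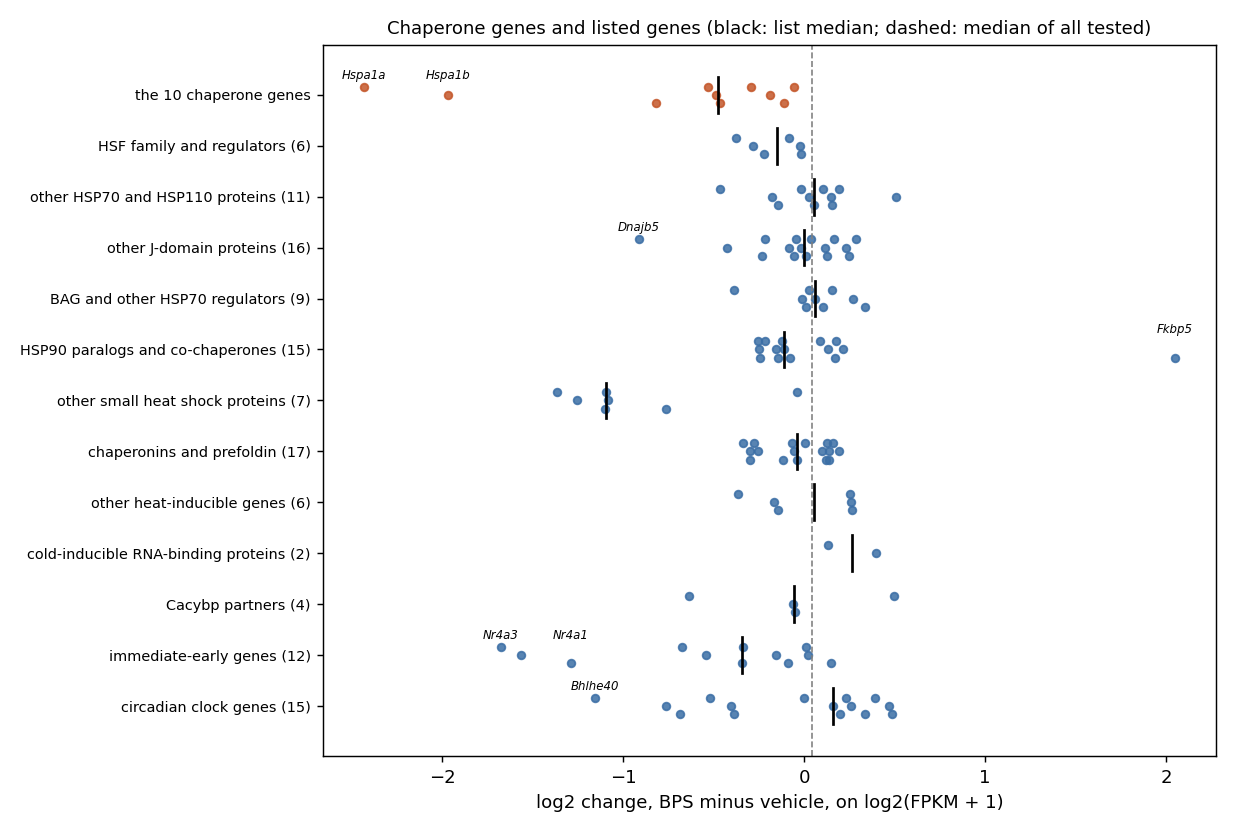
Log2 change, BPS minus vehicle, of the 10 chaperone genes and of the tested genes of each list, with 1 point per gene, list medians in black and the median of all tested genes (0.05) dashed. The 10 genes have a median of -0.48; among the 12 lists the small heat shock proteins, at -1.09, have a lower median, and Fkbp5 stands alone at 2.05.

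To find the genes whose variation between libraries was most like that of the 10, each tested gene was centred on its group mean and compared with the mean of the 10 genes treated in the same way. Over 15 libraries the highest Pearson r were those of Rell1 (0.939), Mafk (0.937), Lrrc32 (0.929), Mcl1 (0.924), Rassf1 (0.924), Nr4a2 (0.923), Maff (0.921), Nuak2 (0.918), Pnrc1 (0.916) and Hnrnpc (0.910). All 10 were highest in vehicle replicate 1, and without that library their r lay between 0.846 and 0.941. The points share library preparation and the sets of libraries described above, and no p is given. These genes differed in how their groups stood. Rell1 ran from 4.28 to 11.5 FPKM in vehicle and from 5.95 to 10.7 FPKM in BPS, with means of 7.36 ± 2.42 and 7.24 ± 1.68 FPKM. Maff, a small MAF transcription factor, had means of 9.91 ± 5.22 and 5.50 ± 1.92 FPKM, and Mcl1, an anti-apoptotic protein with a short life, 95.3 ± 30.6 and 83.4 ± 13.2 FPKM. Of the genes on the 12 lists, Siah2 ranked highest in likeness, 21st of 12146 genes (r = 0.900), followed by Nr4a3 (0.889), Ier5 (0.869) and the HSP90 co-chaperone gene Ptges3 (0.864).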

How the data were processed

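Libraries were made from poly(A) RNA with random primers, per the labels' protocols. No source states whether they kept strand, so reads of overlapping or antisense genes may be mixed. The authors deposited FPKM to 2 decimals for 15 libraries, with a log2 ratio, p-value and q-value per gene. The submitters' processing notes name HISAT2 2.1.0, Bowtie2, RSEM 1.3.1, DESeq2 1.4.5 and GRCm38.p6, with no roles. FPKM divides by the library total, so abundant transcripts lower all others.

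The design allowed for counts. For FPKM, limma 3.58.1 (R 4.3.3; trend, robust) was fitted to log2(FPKM + 1), with Benjamini-Hochberg adjustment over the 12156 genes that reached 1 FPKM in 7 or more libraries, all 10 genes included. Correlations used all pairings (scipy 1.17.1). The steps were tested on simulated data. Identifiers of 16727 genes matched RefSeq (GRCm38.p6), and transcripts for shared windows came from GENCODE.

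The 10 genes and the lists were chosen with earlier results of these data known. Named genes were the 10, up to 3 of smallest p and all past the threshold per list, and the 10 most alike. Hsf1, Hsf4, Dedd2, Cryab, Ptges3, Ier2 and Junb were added after their values were seen. Skp1 is not analysed here. A gene that the rule names is not reported here; it stayed in every fit and count. Alternatives were other scalings, filters, pseudocounts (0.1 and 5) and variance settings, a replicate block, a muscle covariate and left-out libraries. Hspa1a and Hspa1b summed, and the muscle correlations, were added after seeing the data.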

Additional observations from a re-analysis of the deposited data

Results flagged for a closer look

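Of 22 groups of FPKM values examined, 7 held a library whose gap to its nearest neighbour was large for its group. The cut gives about 1 in 20 by chance only for normally spread values. FPKM were used without logs, where high values stand out more, so the count is not set against chance. In 6 of the 7 groups the library was vehicle replicate 1. Hspa1a stood at 93.03 FPKM there, with the next library at 37.95 FPKM. Hspa1b stood at 82.52 FPKM, with the next at 33.63 FPKM, and the sum of both at 175.55 FPKM, with the next at 71.58 FPKM. Dnajb1 reached 43.78 FPKM against 24.53 FPKM, Hsp90aa1 231.55 FPKM against 146.46 FPKM and Dnaja1 180.35 FPKM against 110.51 FPKM. The seventh was Dnaja1 in BPS replicate 2, at 75.43 FPKM, with the next BPS library at 62.02 FPKM. These genes share a library and move together, so the flags are not independent.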

How the results depend on the processing

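The depth in reads is unknown, so the counting error of low values such as Hspa1a in BPS cannot be given. The count of the 10 genes lower in BPS, 2 as reported, was 0 with no filter (3367 of 16774 genes at an unadjusted p under 0.05 by limma), 1 at a pseudocount of 5, 0 with the muscle covariate and 0 without either set of libraries; it ranged from 0 to 2 over the left-out libraries. Without 1 library both genes passed for vehicle replicates 1 and 4 and BPS replicate 2, Hspa1a alone for vehicle replicate 5, Cacybp alone for BPS replicate 1, and neither for the other 10. Of all genes, 42 were higher in BPS, and 8 with no filter, 24 with a filter of 5 FPKM, 15 at a pseudocount of 5, 1 with the muscle covariate and 0 without vehicle replicates 2, 6 and 8 (range 0 to 61 over left-out libraries). The 8 lower genes became 20 with median scaling, 1 with no filter, 5 with a filter of 5 FPKM, 2 at a pseudocount of 5, 1 with the muscle covariate, 1 without BPS replicates 4, 5, 6 and 8 and 0 without vehicle replicates 2, 6 and 8 (range 1 to 27). Of the listed genes, 1 passed, and 3 with median scaling, 0 with no filter, a filter of 5 FPKM, a pseudocount of 5, the muscle covariate or without vehicle replicates 2, 6 and 8, and 2 without BPS replicates 4, 5, 6 and 8 (Ier2 at 1.59 and Junb at 1.36, both higher in BPS), with a range of 0 to 2. By Pearson r, 6 correlations with Hspa1a passed the threshold in vehicle and 5 in BPS over all libraries. These counts ranged from 1 to 6 in vehicle and from 2 to 7 in BPS. By Spearman's rho, 0 passed in either group. The BPS relations cannot be told apart from the difference between replicates 4, 5, 6 and 8 and the other BPS libraries. Nothing is read from their count. What moved the counts above was not tested.

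The log2 change of Dnajb1 reversed to 0.18 without BPS replicates 4, 5, 6 and 8, that of Hsp90aa1 to 0.027 and that of Hspa8 to 0.16. With the muscle covariate that of Hspa8 was 0.036. Over left-out libraries Dnajb1 ranged from -0.21 to 0.064 and Hspa8 from -0.13 to 0.043, both positive without vehicle replicate 1. The other 272 recomputed changes of the 10 genes kept their direction.

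Replicate numbers are shared between the groups, and the deviations of same-numbered libraries correlated at -0.42 to 0.58, with 4 of 7 pairs over 0.1, so the numbers were not taken as a pairing. With the replicate block, 34 genes were higher and 4 lower, 1 of the 10 genes was lower (Hspa1a), and 1 listed gene passed (Bhlhe40). Of the libraries, 2 in vehicle and 3 in BPS correlated best with their own number.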
